A study of Drosophila melanogaster and Drosophila biarmipes with 20 samples.

Results

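Open chromatin was followed through pupal wing development at 5 Drosophila nuclear receptor genes of the ecdysone cascade, ftz-f1, Hr3, Hr4, Hr39 and Eip78C. Their members are the merged open regions of Drosophila melanogaster that overlap the dm6 span of one of these genes, or lie within 10 kb of its nearer end with no closer protein-coding gene. There were 157 such regions among 98646, of which 154 overlapped a gene span and 3 lay in a flank. The regions came from ATAC-seq, in which a transposase inserts adapters into accessible DNA, and each library's list holds the stretches that the caller found enriched. Male wings of flies kept at 20 °C were taken at 5 stages, given as the percentage of pupal development that had passed (0%, then 48%, 60%, 69% and 78%), with 2 libraries titled as biological replicates per stage, 10 in all. A library was made from 24 wing discs at 0%, from 14 to 17 wings of at least 11 animals at 48% (written as 47% in the protocol) and from 24 wings later. The wings of 69% and 78%, but not the younger ones, were cut up before lysis. No genotype or treatment differed between the stages, and the labels name no strain beyond genome lines. How animals were divided between replicates is not given, so tests over libraries measure the spread between these libraries. Drosophila biarmipes was not analysed here.

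The steroid ecdysone drives metamorphosis in pulses. Bound to its receptor it induces early transcription factor genes and then a set of nuclear receptor genes, called early-late, that respond to both the hormone and the early factors. Hr3, related to the vertebrate ROR receptors, and Hr4 are both needed in Drosophila for the timely activation of ftz-f1. Ftz-f1 appears as the hormone titre falls and makes tissues competent to respond to the next pulse. Hr39 belongs to the same receptor family as Ftz-f1 and can bind similar sites, and Eip78C, named for the ecdysone puff in which it lies, is related to the vertebrate Rev-Erb receptors.

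The libraries held 56282342 to 119278540 tags and their lists held 41485 to 80705 entries covering 18004046 to 24438110 bp. Both 48% libraries, replicate 1 of 0% and replicate 2 of 60% had been called with an estimated fragment length of 138 to 208 bp, and the other 6 with 50 to 58 bp. The headers place replicate 1 of every stage and both 48% libraries in one dated folder and the other 4 libraries in a second. The values of replicate 1 and of 48% given below are therefore values within the first folder. The share of tags inside listed regions, given in the headers as an approximate efficiency, was 56.06% and 59.21% at 0%, 62.5% and 62.78% at 48%, 55.35% and 53.09% at 60%, 46.33% and 46.94% at 69%, and 37.48% and 39.22% at 78%. All 10 libraries listed regions at each of the wing genes vg, nub, sd, ap and rn, in sum 60 to 81 of 139. Marker genes of other cell types were listed too. For the muscle genes Mef2, Mhc and twi, 66 and 80 of 115 regions were listed at 0%, 43 and 45 at 48%, and 46 to 78 later. For the neuronal genes elav, brp and nSyb, 17 and 23 of 63 were listed at 0%, 12 and 14 at 48%, and 17 to 34 later. Within that list the genes differed, with elav at 3 and 3 of 8 regions at 0% and 1 and 1 at 78%, and nSyb at 0 and 0 of 6 at 0% and 4 and 5 at 78%. For the hemocyte genes Hml, srp and Pxn, 29 and 39 of 58 were listed at 0%, 14 and 20 at 48%, and 21 to 30 later. For the tracheal genes trh and btl, 24 and 33 of 47 were listed at 0%, 18 and 15 at 48%, and 19 to 28 later. The sums of the other cell types were thus lowest at 48%, but not every gene was. At 48% elav stood at 3 and 4 of 8 regions and nSyb at 2 and 3 of 6. The muscle gene twi stood at 29 and 30 of 48, with 28 in replicate 2 of 60%. The whole lists of 48% held 41485 and 51422 entries, against 48036 to 80705 in the other libraries. The part of such cells in the results below was not tested. In bulk wings, a region open in more cells and a region open more often in the same cells cannot be told apart.

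The members were wider and more constantly listed than the average region. Their median width was 502 bp, against 257 bp over all regions. All 10 libraries listed 40 of the 157 (25.5%), against 16.7% of all regions, and a single library listed 27 (17.2%), against 29.8%. Of the 157, 30 also overlapped another protein-coding gene, and 27 of these lay in Hr3, whose span is shared with CG12912 and CG46321.

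The 5 genes followed different courses, which the plot of listed length by library shows. Listed length is the number of bases that a library listed within the regions of a gene. It was longest at 48% for Hr4 and Eip78C, at 60% for Hr39, at 69% for Hr3 and at 78% for ftz-f1. An exact permutation test asked whether libraries of one stage were closer to each other than in the other divisions of the 10 libraries into 5 pairs, 945 divisions in all, with Benjamini-Hochberg adjustment over 13030 protein-coding genes. Past an adjusted p of 0.05 were 22.0% of these genes. Among the 5 members, Eip78C (exact p = 0.00106, adjusted p = 0.0263) and Hr4 (exact p = 0.00212, adjusted p = 0.0297) were past it. The adjusted p from the same exact permutation test was 0.0602 for ftz-f1, 0.0928 for Hr3 and 0.147 for Hr39. A p of 0.00106 is the smallest these divisions can give. The 48% libraries came from a single dated folder and the pair of every other stage from both folders, which the test does not take into account.

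The calls of Eip78C and Hr4 lay close to the threshold. Both were lost on the number of regions listed, with replicate number as a block, and without the 48% libraries. No gene at all passed in these settings. In the first 20000 entries of each list the adjusted exact p of Eip78C was 0.0919. For Eip78C the adjusted exact p was 0.0506 and 0.0523 without replicate 1 or 2 of 0%, 0.0587 and 0.0683 without replicate 1 or 2 of 60%, and 0.0598 without replicate 1 of 69%. For Hr4 it was 0.0533 and 0.0518 without replicate 1 or 2 of 60% and 0.0538 without replicate 1 of 69%. With listed length taken as ppm of each library's total, that is as a share of all bases the library listed, ftz-f1 passed as well (adjusted exact p = 0.0366).

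**Figure D1:**
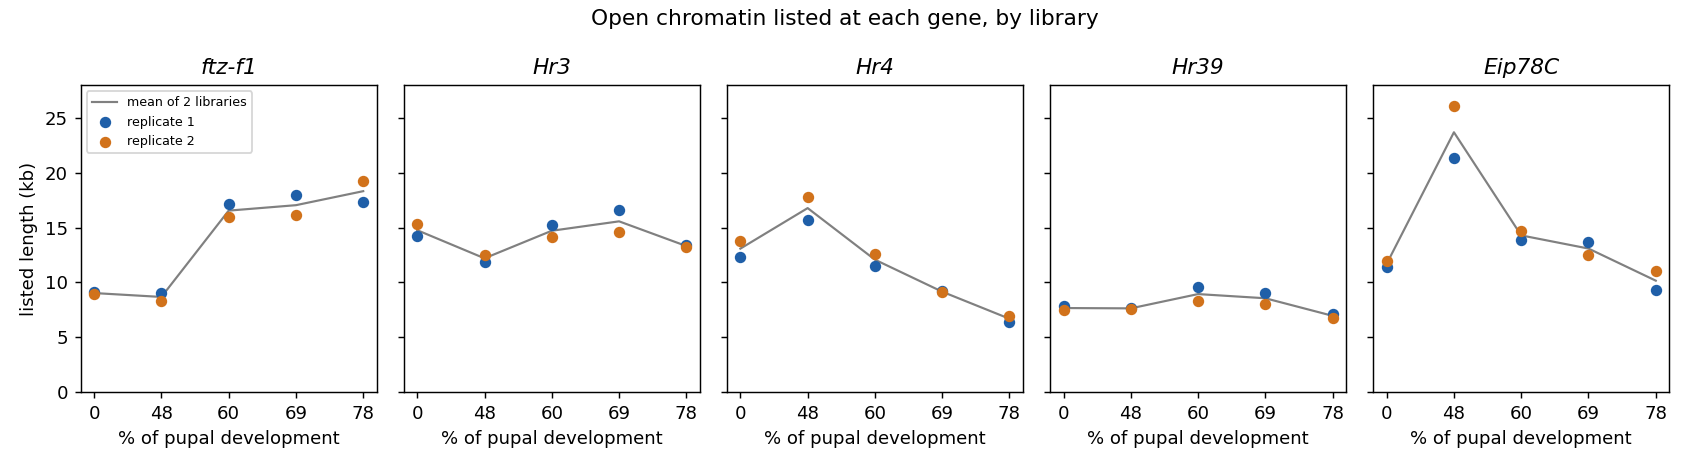
Listed length in kb (vertical axis) at each of the 5 genes against stage in percent of pupal development. Points are single libraries, blue for replicate 1 and orange for replicate 2, and the grey line joins the means of 2 libraries. The ftz-f1 libraries of 60% to 78% lie at 15984 to 19291 bp, above those of 0% and 48% at 8321 to 9142 bp, and the Eip78C libraries of 48%, at 21325 and 26049 bp, lie above every other Eip78C library.

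A region was called opened in a step when both libraries of the later stage listed it and neither of the earlier stage did, and closed in the opposite case. No p-value is given for a single region, since 2 libraries set against 2 cannot reach an exact p (two-sided) below 0.333. The share of all assessed regions that met the rule is given instead as background. From 0% to 48%, 19 of 120 assessed member regions opened (15.8%) against 8.84% of all regions, and 16 closed (13.3%) against 19.8%. From 48% to 60%, 21 of 123 opened (17.1%) against 11.3%, and 9 closed (7.32%) against 4.07%. Of the 21 opened regions 12 lay in ftz-f1, and 6 of the 9 closed regions lay in Hr4. From 60% to 69%, 7 of 120 opened (5.83%) against 7.62%, and 2 closed (1.67%) against 2.66%. From 69% to 78%, 3 of 123 opened (2.44%) against 3.17%, and 7 closed (5.69%) against 4.35%. Over the whole span from 48% to 78%, 25 of 135 opened (18.5%) against 16.5%, and 15 closed (11.1%) against 5.26%. Over the 4 consecutive steps 65 of the 157 regions were called at least once (41.4%) against 32.1% of all regions. Of the 157, 50 were called opened (31.8%) against 19.1%, 32 closed (20.4%) against 19.9%, and 17 in both directions in different steps (10.8%) against 6.88%. A region listed by a single library cannot be called under this rule. Such regions made up 17.2% of the 157 and 29.8% of all regions, so these shares are not on equal terms. Several counts depended on the setting. With an equal number of entries per library, 1 region opened and 7 closed from 60% to 69%, and 10 closed from 0% to 48%. In the first 20000 entries of each list, 13 opened from 48% to 60%, 14 opened from 48% to 78%, and 9 closed from 0% to 48% and 8 from 60% to 69%. With at least 50% of a region covered, 17 closed from 48% to 60% and 31 from 48% to 78%.

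**Figure D2:**
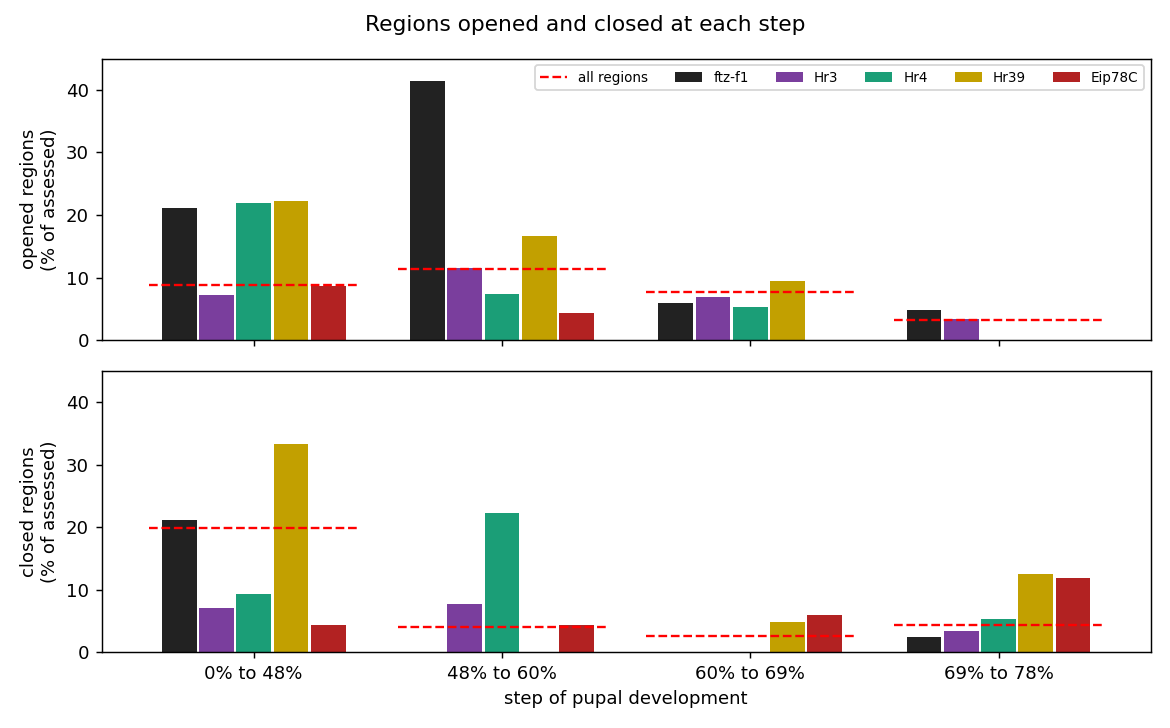
Opened regions (upper panel) and closed regions (lower panel) of each gene in each consecutive step, as a percentage of the regions of the gene that any library of the step listed. Bars are the 5 genes and the dashed red line is the share over all merged regions. The tallest bar is that of ftz-f1 from 48% to 60%, at 41.4% against 11.3%.

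The ftz-f1 gene (Dmel_CG4059) had a listed length of 15984 to 19291 bp in the libraries of 60% to 78% and of 8321 to 9142 bp in those of 0% and 48%. It spans 3L from 18750607 to 18801309 and held 41 regions, all of which overlapped the span. The listed length was 9142 and 8933 bp at 0%, 9043 and 8321 bp at 48%, 17112 and 15984 bp at 60%, 17983 and 16105 bp at 69%, and 17350 and 19291 bp at 78% (replicates 1 and 2). The 4 earlier and the 6 later libraries did not overlap, and within each of these sets the stages were close. As a share of the gene, open chromatin covered 15.5% to 17.1% in the earlier libraries and 30.6% to 37.4% in the later ones. The mean at 60% was 1.91 times that at 48% (16548 ± 798 against 8682 ± 511 bp, SD, n = 2 each), where the median gene with at least 10 regions stood at 1.2. Of all genes, 45.3% were longer in both 60% libraries than in both 48% libraries and 15.1% were shorter. Both 48% libraries had the long fragment length setting (138 to 208 bp), so stage and setting cannot be told apart within 48%. Of the other libraries with that setting, replicate 1 of 0% stood at 9142 bp and replicate 2 of 60% at 15984 bp. The 48% libraries held 71365625 and 67358505 tags, against 113014233 and 86538200 at 60%, and the part of depth was not tested. The number of ftz-f1 regions listed per library went from 15 in both 48% libraries to 28 and 26 at 60%, and was 29 and 37 at 78%.

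From 48% to 60%, 12 of the 29 assessed regions of ftz-f1 opened (41.4%, against 11.3% of all regions) and 0 closed (against 4.07%). The 12 lay along most of the gene, from 18752999 to 18791738, and were 228 to 1102 bp wide. Of the 12, 9 had been listed by neither disc library and 3 by both, so that these 3 had closed from 0% to 48% and opened again. The 3 lay at 18781523 to 18782198, 18785810 to 18786911 and 18790845 to 18791738, all in the higher-coordinate part of the gene. At the second of these, libraries listed 376 and 356 bp at 0%, 0 and 0 at 48%, 977 and 923 bp at 60%, 835 and 693 bp at 69%, and 811 and 858 bp at 78%. The region was thus listed over more of its width in every library from 60% on than in the disc. Of the 12, 11 were listed by both 69% libraries and 10 by both 78% libraries. A region from 18783453 to 18784102 shows the more common course: it was listed over 0 bp in the 4 libraries of 0% and 48% and over 581 to 646 bp in the 6 later ones. Leaving out single libraries gave 12 to 14 opened regions for this step, and the first 20000 entries of each list gave 9.

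Further along ftz-f1, some regions opened later than 60%, and a few were listed most widely in the disc. The stretch of 8 regions from 18781523 to 18788065, chosen after its values were seen, held 791 and 800 bp of listed chromatin at 0%, 141 and 101 bp at 48%, and 2267 to 3139 bp in the libraries of 60% to 78%. It lies just beyond a stretch of 9090 bp, from 18772433 to 18781522, in which no library listed a region. Toward the higher end of the gene, the region from 18794961 to 18795508 was listed in neither library at 0%, 48% and 60%, over 251 and 158 bp at 69% and over 548 and 514 bp at 78%. Its neighbour from 18795720 to 18797132 was absent from the disc libraries and was listed over 732 and 690 bp at 48%, 824 and 764 bp at 60%, 1193 and 1048 bp at 69%, and 1384 and 1369 bp at 78%. The region that holds the higher end of the gene, from 18799964 to 18801852, was listed by all 10 libraries, over 1636 to 1733 bp at 0%, 580 to 1009 bp at 48% and 1242 to 1653 bp later. No region held the lower end. The region from 18767473 to 18768503 ran the other way and was listed over 1031 and 947 bp at 0%, 608 and 566 bp at 48%, 463 and 525 bp at 60%, 389 and 393 bp at 69% and 309 and 130 bp at 78%. Its highest values were those of the disc libraries.

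**Figure D3:**
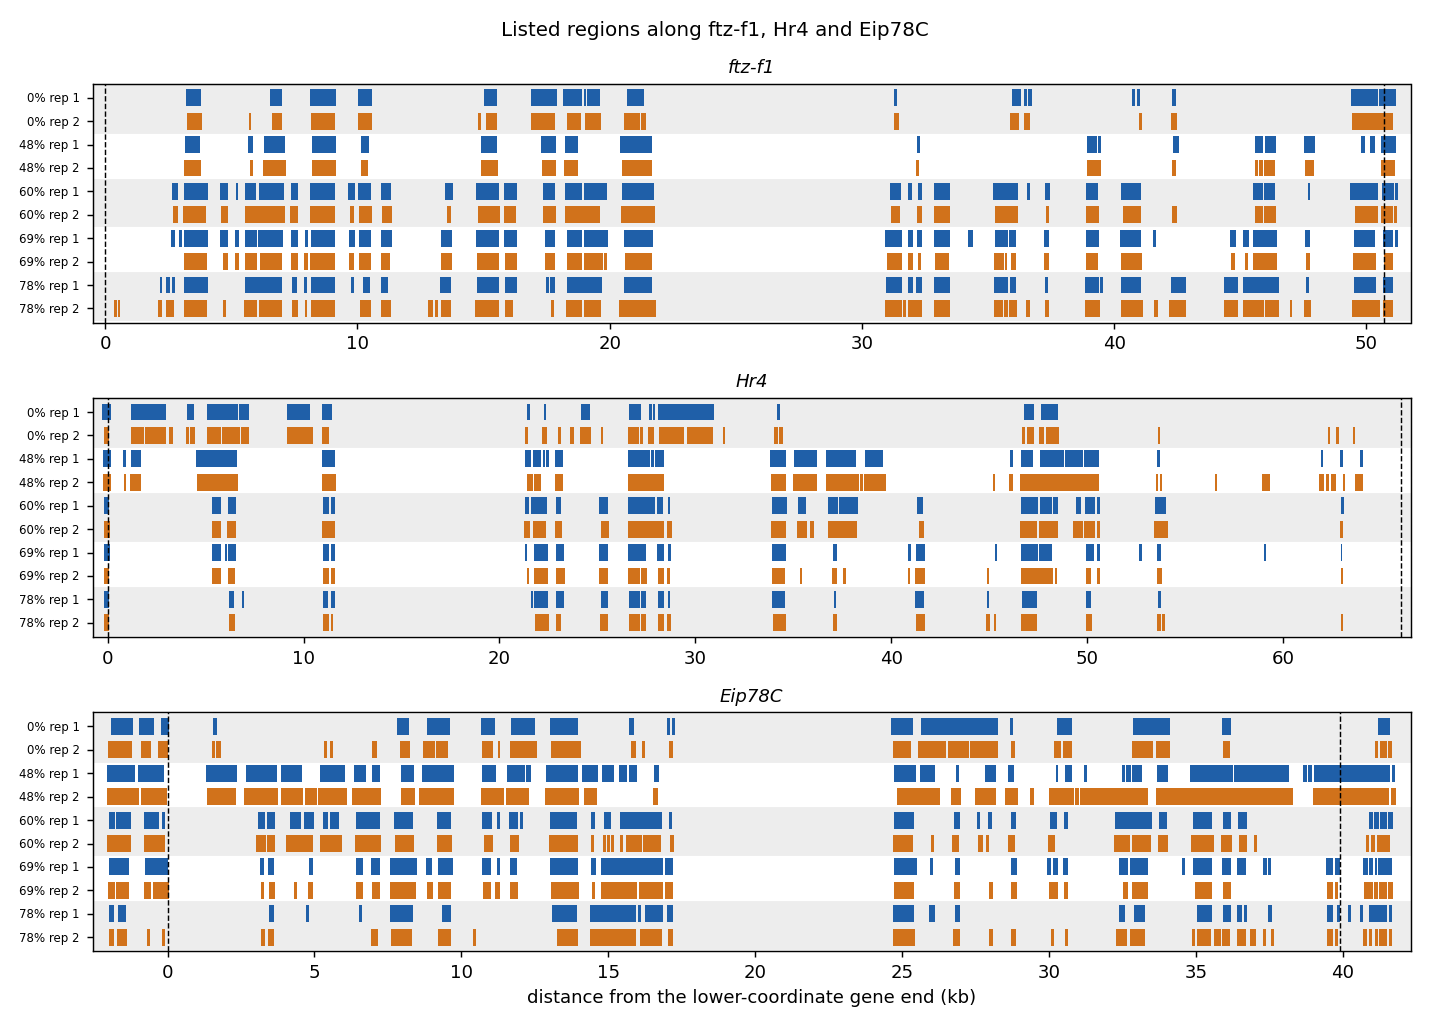
Listed regions of each library (rows, blue for replicate 1 and orange for replicate 2) along ftz-f1, Hr4 and Eip78C, in kb from the lower-coordinate end of each gene. Dashed lines mark the gene ends and grey bands separate the stages. New bars appear along ftz-f1 at 60%, while Hr4 and Eip78C show their broadest bars at 48%.

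Hr39 (Dmel_CG8676), the relative of ftz-f1, had listed lengths in base pairs that overlapped between 0% and 48%, while regions were called in both directions between these stages. It spans 2L from 21237250 to 21259675 and held 23 regions, 22 in the span and 1 in a flank. The listed length was 7835 and 7509 bp at 0%, 7707 and 7578 bp at 48%, 9555 and 8332 bp at 60%, 9080 and 8046 bp at 69%, and 7124 and 6799 bp at 78%. The 0% and 48% libraries overlapped, with a ratio of 0.996 of the means (7642 ± 91.2 against 7672 ± 231 bp, SD, n = 2 each). As ppm of the library total they did not overlap, at 376 and 307 at 0% and 419 and 403 at 48%. From 0% to 48%, 4 of its 18 assessed regions opened (22.2%) against 8.84% of all regions, and 6 closed (33.3%) against 19.8%. In the first 20000 entries of each list the 6 became 2.

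Both directions were seen at 2 neighbouring places in the middle of Hr39, chosen after their values were seen. The region from 21246368 to 21247766 was listed over 0 bp in both disc libraries and over 1191 to 1338 bp in the 8 pupal wing libraries. Its neighbours from 21248190 to 21249703, 2 regions, were listed over 1200 and 1251 bp at 0%, 126 and 101 bp at 69%, and 0 bp in the other 6 libraries. Another region, from 21243687 to 21244806, was listed over 1038 and 1093 bp at 0%, 0 bp at 48% and 60%, 504 and 342 bp at 69% and 367 and 161 bp at 78%. It therefore closed after the disc stage and opened again, in part, from 60% to 69%. Of the regions that were unlisted at 0%, those at 21253404 to 21254071 and at 21254243 to 21254791 were listed by both libraries of each later stage, most widely at 48% and 60%. At the lower end of the gene, the region from 21236683 to 21238459, which reaches into CG31626, was listed over 1307 to 1764 bp in all 10 libraries. The region at the higher end, from 21259667 to 21259797, was listed by 1 library of 60% alone.

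Hr3 (Dmel_CG33183), the ROR relative that activates ftz-f1, had its shortest listed length at 48%, and its regions followed different courses along the gene. It spans 2R from 10203995 to 10237348 and held 33 regions, 31 in the span and 2 in a flank. The listed length was 14241 and 15287 bp at 0%, 11872 and 12533 bp at 48%, 15253 and 14176 bp at 60%, 16568 and 14574 bp at 69%, and 13401 and 13240 bp at 78%. Both 48% libraries lay below the 8 others, at 30.3% and 31.5% of the span against 34.2% to 44.3%. As ppm of the library total, 48% was at 646 and 667 and 0% at 683 and 626, so on that scale these stages overlapped. Of the assessed regions, 2 of 28 opened and 2 closed from 0% to 48% (7.14% each, against 8.84% and 19.8% of all regions). From 48% to 60%, 3 of 26 opened (11.5%, against 11.3%) and 2 closed (7.69%, against 4.07%). From 48% to 78%, 7 of 29 opened (24.1%, against 16.5%) and 4 closed (13.8%, against 5.26%). The 7 became 3 in the first 20000 entries of each list, and the 4 became 9 with at least 50% of a region covered. Calls within Hr3 cannot be assigned to it alone where the region also overlaps CG12912 or CG46321.

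The regions of Hr3 described here are those at its ends, some of those called in a step, and the one with the widest entry at 69% and 78%. A neighbour of that region, chosen after its values were seen, is given as well. Other regions that held the widest entry in libraries of 0%, 48% and 60% are not described. The region from 10215471 to 10218272 was listed over 308 and 373 bp at 0%, 1139 and 957 bp at 48%, 2465 and 2367 bp at 60%, 2788 and 2636 bp at 69%, and 2733 and 2574 bp at 78%. Its 6 libraries of 60% to 78% lay above the 4 earlier ones, and the widest entry on the gene lay in this region in all 4 libraries of 69% and 78%. Its neighbour from 10219496 to 10220685 ran the other way, with 1176 and 947 bp at 0%, 837 and 874 bp at 48%, 433 and 490 bp at 60%, 422 and 385 bp at 69%, and 323 and 345 bp at 78%. Likewise the region over the higher end of the gene, from 10236934 to 10239416, which reaches into Hdc, was listed over 2322 and 2421 bp at 0%, 1332 and 1244 bp at 48%, 1287 and 1267 bp at 60%, 1089 and 1009 bp at 69%, and 475 and 978 bp at 78%. Beside it, the region from 10235392 to 10236708 was listed over 1121 and 1050 bp at 0%, 0 bp in both 48% libraries, 588 and 196 bp at 60%, and 925 to 1297 bp at 69% and 78%. In the lower flank, the region from 10202974 to 10203635 was listed by both libraries of the 4 other stages, over 530 to 655 bp, and by neither at 48%. At the lower end, the region from 10203667 to 10204021 was listed over 101 and 0 bp at 0%, 133 and 199 bp at 48%, 152 and 156 bp at 69%, and 0 bp in the libraries of 60% and 78%. A region that marked 48% was the one from 10223456 to 10223829, listed over 356 and 369 bp there and in no other library.

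**Figure D4:**
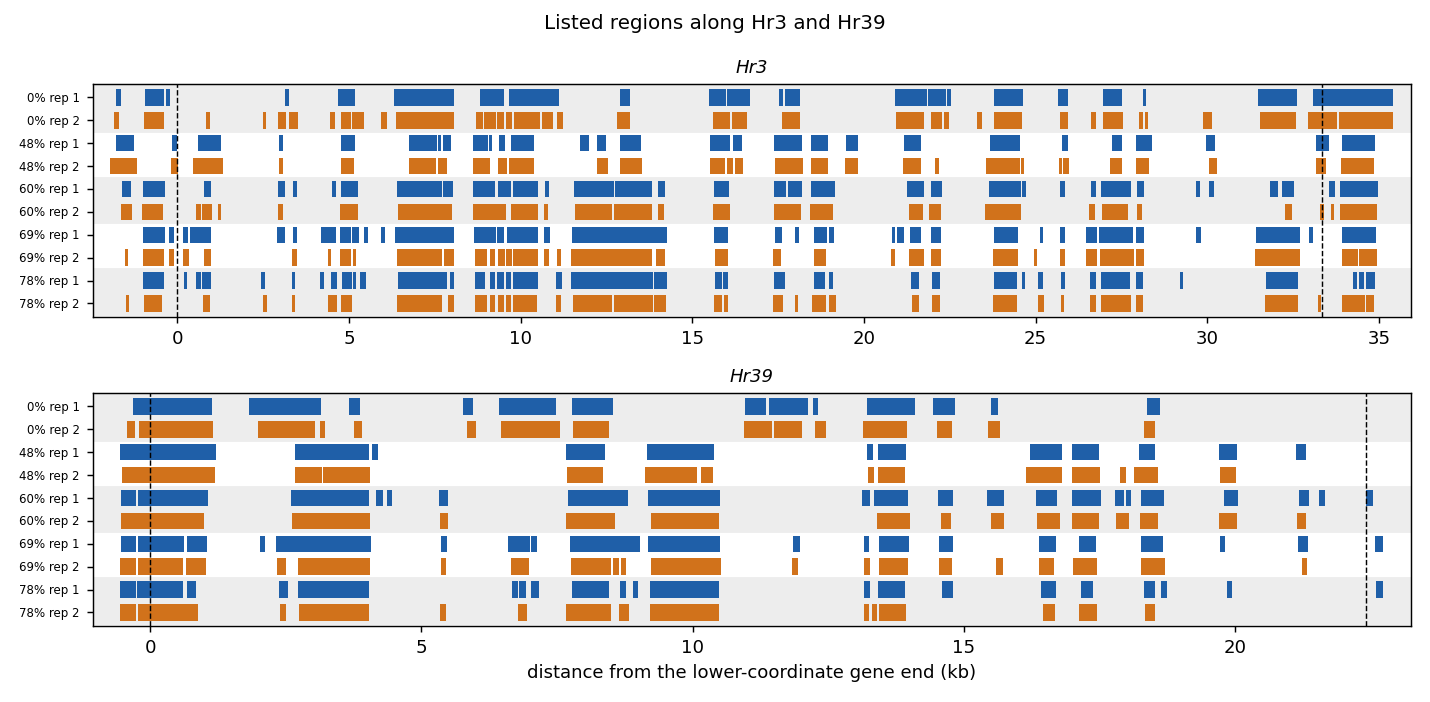
Listed regions of each library (rows, blue for replicate 1 and orange for replicate 2) along Hr3 and Hr39, in kb from the lower-coordinate end of each gene. Dashed lines mark the gene ends and grey bands separate the stages. In Hr39 the bars near 10 kb start at 48%, and the disc libraries show none there, while the disc bars near 12 kb are absent at 48%.

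Hr4 (Dmel_CG43934), also needed for ftz-f1 activation and known in Drosophila for its role in the timing of the prothoracic gland, had its longest listed length at 48% and a shorter one at each later stage. It spans X from 1941940 to 2007956 and held 36 regions, all of which overlapped the span. The listed length was 12358 and 13814 bp at 0%, 15732 and 17825 bp at 48%, 11546 and 12609 bp at 60%, 9221 and 9098 bp at 69%, and 6438 and 6952 bp at 78%. Neither 48% library overlapped any other library, and from 48% on each stage lay wholly below the one before. The share of tags in listed regions was also highest at 48% and lower at each later stage, and its part in the result was not tested. The mean of 48% was 1.28 times that of 0% (16778 ± 1480 against 13086 ± 1030 bp), while the median gene with at least 10 regions stood at 0.785. Over all genes 30.0% were longer in both 48% libraries than in both 0% libraries, and 37.2% were shorter. From 48% to 78% the mean of Hr4 went to 0.399 of its value (6695 ± 363 bp, SD, n = 2), against a median of 1.17, with 39.8% of all genes longer and 25.1% shorter. In the steps between, 24.9% of genes were longer and 23.0% shorter from 60% to 69%, and 11.1% longer and 30.3% shorter from 69% to 78%. Hr4 was shorter in both.

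From 0% to 48%, 7 of 32 assessed regions of Hr4 opened (21.9%, against 8.84% of all regions) and 3 closed (9.38%, against 19.8%). From 48% to 60%, 2 of 27 opened (7.41%, against 11.3%) and 6 closed (22.2%, against 4.07%). Without replicate 1 of 48% the 7 became 12 and the 6 became 13. Replicate 2 of 48% listed 25 regions of the gene and replicate 1 listed 18. In the first 20000 entries of each list the 6 became 3. Without replicate 1 of 0% the 3 became 7. A block of 4 regions from 1976948 to 1981672, chosen after its values were seen, followed the same course. It was listed over 0 bp in both disc libraries, 3635 and 4121 bp at 48%, 1915 and 2181 bp at 60%, 217 and 511 bp at 69%, and 101 and 209 bp at 78%. The block was thus listed most widely at 48%, and its stages from 48% to 69% did not overlap. A further block of 5 regions near the lower end, from 1943095 to 1952419, was highest in the disc. It was listed over 5455 and 5728 bp at 0%, 2642 and 2635 bp at 48%, 844 and 874 bp at 60%, 972 and 814 bp at 69%, and 363 and 307 bp at 78%. Within it, the region from 1951073 to 1952419 was listed over 1203 and 1320 bp at 0% and in no later library.

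Other regions of Hr4 were wide at every stage or came late. The widest, from 1968508 to 1972918, was listed over 3709 and 3639 bp at 0%, 1742 and 1847 bp at 48% and 1239 to 2054 bp later. The next, from 1988523 to 1992628, was widest at 48%, with 3559 and 4012 bp against 1404 and 1475 bp at 0% and 1077 and 1148 bp at 78%. Against this trend, regions from 1967017 to 1967511 and from 1983151 to 1983661 opened from 48% to 60% and were listed by both libraries of each later stage. The region at the lower end of the gene, from 1941668 to 1942114, was listed over 219 to 421 bp in all 10 libraries, and no region held the higher end. Between 1953611 and 1963190, a stretch of 9580 bp, no library listed a region.

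Eip78C (Dmel_CG18023), the Rev-Erb relative, had its longest listed length at 48%, the longest of the 5 genes in any library. It spans 3L from 21226609 to 21266503 and held 24 regions, all of which overlapped the span. The listed length was 11406 and 11979 bp at 0%, 21325 and 26049 bp at 48%, 13881 and 14702 bp at 60%, 13718 and 12464 bp at 69%, and 9328 and 11004 bp at 78%. Open chromatin covered 44.4% and 55.7% of the gene in the 48% libraries and 19.9% to 31.3% in the 8 others. The mean of 48% was 2.03 times that of 0% (23687 ± 3340 against 11692 ± 405 bp, SD, n = 2 each), and that of 60% was 0.603 of it. On the scale of ppm of the library total, Eip78C stood at 1160 and 1390 at 48% and at 490 to 734 in the other libraries. The long fragment length setting was shared by 1 library of 0% and 1 of 60%. Their values were 11406 bp at 0% and 14702 bp at 60%, against 11979 and 13881 bp in the other library of the same stage, called with a short setting. Both 48% libraries had the long setting, so stage and setting cannot be told apart within 48%, for any of the 5 genes. The share of tags in listed regions was also highest at 48%, at 62.5% and 62.78% against 37.48% to 59.21% in the other libraries. From 48% on it was lower at each later stage, as was the mean of Eip78C. At 0% the share was 56.06% and 59.21%, above that of 60% and 69%, while Eip78C was shorter at 0% than at 60% and 69%. The part of this share was not tested.

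Regions of Eip78C opened from 0% to 48% at close to the share of all regions, while many were listed over more bases at 48%. Both libraries listed 14 of the 24 regions at 0% and 17 at 48%. Of 23 assessed regions 2 opened (8.7%, against 8.84% of all regions) and 1 closed (4.35%, against 19.8%). The region from 21257660 to 21264791, which overlaps CG43218, was listed over 1576 and 1427 bp at 0%, 4388 and 6878 bp at 48%, 2803 and 3054 bp at 60%, 2510 and 1596 bp at 69% and 1777 and 2710 bp at 78%. In replicate 2 of 48% a single entry there was 4560 bp wide, from 21260232 to 21264791. Over the higher end of the gene, the region from 21265604 to 21268408, which reaches into CG9391 and CG9389, was listed over 2660 and 2746 bp at 48% and over 416 to 1219 bp in the 8 other libraries. Both places were listed in all 10 libraries and were widest at 48%.

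A block of 5 regions near the lower end of Eip78C, from 21227919 to 21233882 and chosen after its values were seen, was listed most widely at 48%. It was listed over 126 and 619 bp at 0%, 4347 and 5238 bp at 48%, 2512 and 3200 bp at 60%, 1007 and 1099 bp at 69%, and 371 and 559 bp at 78%. The mean of the 48% libraries was 4792 ± 630 bp (SD, n = 2) and that of the 78% libraries 465 ± 133 bp, and the 48% libraries lay above the 8 others. Its first region, from 21227919 to 21228958, closed at once, with 1040 and 991 bp at 48% and 0 in the 6 later libraries. From 48% to 78%, 4 of 24 regions closed (16.7%, against 5.26% of all regions) and 1 opened (4.17%, against 16.5%). Without replicate 1 of 48% the 4 became 7, and with a region counted as listed only where at least 50% of it was covered they became 11. The region from 21251244 to 21254878 was widest in the disc, at 3352 and 3238 bp, with 1749 and 2531 bp at 48% and 985 to 1256 bp in the 6 later libraries. A different course was seen at 21240729 to 21243480, listed over 180 and 283 bp at 0%, 1638 and 608 bp at 48% and 1660 to 2319 bp in the 6 later libraries. The region over the lower end of the gene, from 21224557 to 21226663, was listed by all 10 libraries, over 1820 and 1970 bp at 48% and 450 and 749 bp at 78%. No library listed a region between 21243879 and 21251243, a stretch of 7365 bp.

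The courses of Hr4 and Eip78C resembled each other, and that of ftz-f1 was unlike both. Over the 10 libraries, which share their totals and stages, Pearson's r of the listed length in ppm was 0.898 between Hr4 and Eip78C, -0.723 between ftz-f1 and Hr4 and -0.433 between ftz-f1 and Eip78C. Among genes with at least 10 regions, the most like ftz-f1 were Fas1 (r = 0.985) on 3R and Pde8 (r = 0.983) on 2R. Fas1, the adhesion protein gene fasciclin, had 2324 to 2895 bp in the libraries of 0% and 48% and 4560 to 5679 bp later. The most like Hr4 were mld (0.983), a zinc finger gene, and CG15465 (0.976). The most like Eip78C were vn (0.985), the EGF receptor ligand gene, and CG11658 (0.98), but in base pairs vn ranged from 10486 to 14212 and CG11658 from 1780 to 7440. The most like Hr3 were csw (0.844) and Syp (0.812), and the most like Hr39 CG12567 (0.91) and promL (0.875). These are correlations over 10 libraries, the highest of 2619 genes, and are descriptions.

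Other genes of the hormone cascade took several courses, and those past the threshold are named after their values were seen. Over all 13030 genes, 22.0% were past it. Of 19 ecdysone response genes, 3 were past an adjusted p of 0.05 in the exact permutation test of stage, with Eip74EF, an early ETS factor gene, longest at 48% (adjusted p = 0.0297), and Blimp-1 (0.0314) and Kr-h1 (0.0344) longest at 0%. In this list 59 of 479 assessed regions opened and 98 closed from 0% to 48% (12.3% and 20.5%, against 8.84% and 19.8% of all regions), and 24 of 352 opened and 35 closed from 48% to 60% (6.82% and 9.94%, against 11.3% and 4.07%). From 60% to 69%, 39 of 357 opened and 12 closed (10.9% and 3.36%, against 7.62% and 2.66%), and from 69% to 78%, 15 of 392 opened and 15 closed (3.83% each, against 3.17% and 4.35%). By number of regions, most opened were those of Eip74EF in the first step (16 of 47) and of Eip93F, a late factor gene, in the second (7 of 40), and most closed were those of br in the first (23 of 53) and of Eip74EF in the second (8 of 46). Of 13 other nuclear receptor genes, 4 were past the threshold by the exact permutation test, kni and eg longest at 0% (adjusted p = 0.0423 and 0.0456), knrl at 69% (0.0344) and Hr96 at 78% (0.0423). In this list 11 of 123 regions opened from 48% to 60% (8.94% against 11.3% of all regions) and 1 closed (0.813% against 4.07%), with 6 of 25 opened in Hr38, the largest number in the list. From 0% to 48%, 12 of 164 regions of the list opened and 33 closed (7.32% and 20.1%, against 8.84% and 19.8% of all regions). The largest number closed in that step was in svp, 8 of 36, though the share was higher in eg, 7 of 17. Of 4 genes known as Ftz-f1 targets, Ddc, the dopa decarboxylase gene, was longest at 78% (adjusted exact p = 0.0314) and Edg91 at 0% (0.0396). From 48% to 78%, 6 of the 14 assessed regions of these targets opened, 5 of them in Ddc (42.9% against 16.5% of all regions), and 0 closed, against 5.26% of all regions.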

How the data were processed

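The build was dm6, and HOMER, MACS2, SAMtools, Picard and Bowtie2 are named, without version or order, per the submitters' processing notes. Per the file headers, the deposited lists came from HOMER findPeaks in histone style with no input control (window 100 bp, Poisson p threshold 0.001, local filter of 10000 bp with p threshold 0.0001, genome size 120 Mb). The deposited score column is 1 in every row and ranks nothing, so coordinates were used. Where a shorter list was wanted, the first entries in list order were taken as the stricter ones. Whether that order follows peak strength was not tested. The headers name no shift of the transposase cut.

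Overlapping entries of the 10 single-library D. melanogaster lists were merged. A library listed a region where it shared at least 1 base with it. Gene spans came from the RefSeq table of the same assembly, without strand or exons, so gene ends are named by coordinate. A region overlapping several genes counted for each. Length, calls and the exact permutation test were computed in Python 3.11.15 with NumPy 2.4.6 and pandas 2.3.3. The permutation test was tried on simulated listed lengths, and merging, coverage and gene assignment on a small made-up set. The opened and closed calls were not tried on simulated data. The authors' lists on pooled replicates served as an alternative. The members, gene lists and tests were chosen with earlier results of these data known. Of the named list genes, Eip71CD and Eip55E matched through synonyms. The named genes are the members, genes that share their regions, the cell type markers and the 2 genes most like each member. Of the gene lists, those past the threshold of the stage test and the most opened or closed gene in some of the steps are named.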

Additional observations from a re-analysis of the deposited data

How the results depend on the processing

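Other settings moved many counts of opened and closed member regions by more than 1.5 times, and the cause was not tested beyond what the settings do by construction. With at least 50% of a region covered, 17 closed from 48% to 60% (main 9), 10 from 60% to 69% (2), 11 from 69% to 78% (7) and 31 from 48% to 78% (15), and 5 opened from 69% to 78% (3). With the first 20000 entries of each list, 9 closed from 0% to 48% (16) and 8 from 60% to 69% (2), and 13 opened from 48% to 60% (21) and 14 from 48% to 78% (25). With an equal number of entries per library, 10 closed from 0% to 48% and 7 from 60% to 69%, and 1 opened from 60% to 69% (7). In the authors' pooled lists 29 opened from 0% to 48% (19), 20 from 60% to 69% and 9 from 69% to 78%, while 17 closed from 48% to 60%, 9 from 60% to 69%, 17 from 69% to 78% and 25 from 48% to 78%. Spans without the flank moved none of these counts or calls over the 5 genes past 1.5 times. Leaving out 1 library relaxes the rule, so the counts are at least as large. Opened regions then ranged from 20 to 28 (0% to 48%), 21 to 29 (48% to 60%), 7 to 16 (60% to 69%), 4 to 11 (69% to 78%) and 25 to 36 (48% to 78%), and closed regions from 16 to 26, 10 to 19, 3 to 8, 10 to 14 and 17 to 25. The libraries behind moves of over 1.5 times were replicate 1 of 0% (26 closed to 48%), replicate 1 of 48% (19 closed to 60%, 25 to 78%), replicates 1 and 2 of 60% (12 opened and 8 closed to 69%), replicate 2 of 69% (16 opened and 5 closed from 60%, 14 closed to 78%), replicate 1 of 69% (5 closed from 60%, 5 opened to 78%), replicate 1 of 78% (11 opened, 11 closed) and replicate 2 of 78% (12 closed).

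For the stage test, the adjusted exact p without 1 library ranged from 0.065 to 0.107 for ftz-f1, 0.0611 to 0.257 for Hr3, 0.0353 to 0.0538 for Hr4, 0.129 to 0.245 for Hr39 and 0.031 to 0.0683 for Eip78C. The Eip78C call was lost in the first 20000 entries (adjusted exact p = 0.0919). On the number of regions it was 0.245, and Hr4 stood at 0.593. The 8 libraries without 48%, an alternative added after the data were seen, gave 0.114 for Hr4 and 0.0959 for Eip78C, with 0 of 13030 genes past the threshold, and a smallest possible exact p of 0.00952. Libraries of different stages share a replicate number and a dated folder, which go together except that replicate 2 of 48% lay in the folder of replicate 1. Over genes, the replicate 1 deviations of 2 stages correlated at -0.603 to 0.603, above 0.1 in 7 of 10 stage pairs and not in all. With the replicate block, Hr4 and Eip78C were both at an adjusted exact p of 0.0969. In that setting 0 genes were past the threshold, with a smallest possible exact p of 0.00833. As ppm of the library total, ftz-f1 passed (adjusted exact p = 0.0366). Genes past the threshold numbered 2861, against 933 in the first 20000 entries, 0 on the number of regions, 848 among genes with at least 10 regions (added after the data were seen), and 278 to 2007 without 1 library. Depth limits what a list can hold: an unlisted region is one not detected at the library's depth and setting.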
